A study of Homo sapiens with 16 samples.

Results

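HepG2 cells that received free fatty acids (FFA) were compared between co-culture with Caco-2 cells and mono-culture. HepG2 is a human hepatocellular carcinoma line that secretes many plasma proteins, and Caco-2 is a human colorectal adenocarcinoma line used as a model of the gut lining. The comparison took the 2 co-culture libraries and the 2 mono-culture libraries of FFA-treated HepG2, which are 4 of the 16 libraries of the series, and kept genes that averaged 100 CPM or more over those 4, where CPM is a gene's reads scaled to a common library total. By this rule 1218 of the 60623 listed genes were kept. The gene just inside the limit was G6PC3 at 100.1 CPM and the gene just outside was DLK1 at 99.9 CPM.

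All cells grew in a microfluidic device, in which co-culture joined a gut chamber and a liver chamber through circulating medium, while mono-cultured cells had no partner line. The FFA groups received a total of 1 mM palmitic and oleic acid in medium with fatty acid-free albumin, and the control groups received none. The labels place sample preparation 1 day after the addition of FFA, and since the study describes mRNA-seq both after 1 day and after a week, the duration rests on the labels. Polyadenylated RNA was read as PCR-amplified cDNA on a Nanopore sequencer, with 2 libraries in each of the 8 groups. Each cell type is 1 established line, and the labels do not say whether the 2 libraries of a group came from separate chips, so the p-values measure the spread between libraries, which may be technical.

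The liver takes up fatty acids, burns them in mitochondria or packs them with apolipoproteins for secretion, and makes most plasma carrier proteins. These secreted proteins fold in the endoplasmic reticulum (ER), where chaperones such as HSPA5 (BiP) and disulfide isomerases act, and saturated fatty acids such as palmitic acid are known to disturb this compartment. In the body the liver receives blood from the gut, and the linked chambers were built to model that route.

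The co-culture libraries with FFA held 147096 and 49634 reads and the mono-culture libraries 424538 and 274857 reads, against 430815 to 1657420 reads in the 4 HepG2 libraries without FFA. One read was therefore worth 6.80 and 20.1 CPM in the co-culture libraries and 2.36 and 3.64 CPM in mono-culture. In the shallower co-culture library, 471 of the 1218 genes rested on fewer than 10 reads, although no gene was at 0 in any of the 4 libraries. The median gene differed by 0.33 on the log2 scale between the 2 co-culture libraries and by 0.22 between the 2 mono-culture libraries. Liver markers fixed for HepG2 summed to 67425 and 84578 CPM in co-culture and 56794 and 64546 CPM in mono-culture, with 18 of 20 markers present in every library and CYP2E1 and GC listed at 0. Of 26 Caco-2 markers, 7 to 9 had a read, and the sums were 673 and 745 CPM in co-culture against 775 and 728 CPM in mono-culture, compared with 1991 to 2326 CPM in the Caco-2 libraries with FFA. The groups overlapped in this sum (exact permutation test, two-sided, p = 0.667, n = 2 in each group), and with 2 against 2 this test cannot go below the p = 0.333 found for the liver marker sum.

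The gut marker sum was set largely by TM4SF5, which was at 320 and 343 CPM in co-culture and 575 and 535 CPM in mono-culture and averaged only 114 CPM in Caco-2. Without it, an alternative chosen after the values were seen, the sums were 353 and 403 CPM in co-culture and 200.2 and 193 CPM in mono-culture. The co-culture libraries were then both higher, by 1.92-fold (exact permutation test, two-sided, p = 0.333, the smallest this design can give). Of the 26 markers, 9 had a higher mean in co-culture, 2 a lower one, and 15 were at 0 in all 4 libraries. VIL1, the microvillus protein villin, was at 61.2 and 101 CPM against 18.8 and 14.5 CPM, above its Caco-2 mean of 43.9 CPM. KRT19, an epithelial keratin, was at 88.4 and 60.4 CPM against 28.3 and 50.9 CPM (717 CPM in Caco-2), and S100A14, a calcium-binding protein, at 6.80 and 20.2 CPM against 0 and 3.64 CPM (839 CPM in Caco-2). LGALS2, a galectin, was at 81.6 and 60.4 CPM against 56.5 and 32.7 CPM (172 CPM in Caco-2), and both co-culture values of each of these 4 markers were above both mono-culture values. Listed at 0 in all 4 libraries were PHGR1 and the intestinal cadherin CDH17, which averaged 62.0 and 36.5 CPM in Caco-2, and 13 markers that averaged at most 9.27 CPM there. The shallower co-culture library would show 3 reads at 60.4 CPM. The part of these markers in the results was not tested.

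The genes that rose in co-culture with FFA included APOE, APOA1, the iron carrier gene TF and the ER chaperone gene HSPA5, and those that fell included 7 of the 14 tested genes of the mitochondrial genome. Of the 1218 genes, 63 passed limma's test at an adjusted p under 0.05 (5.17%), of which 43 were higher in co-culture (3.53%) and 20 were lower (1.64%). The changes ran from 2.19 for APOE to -1.09 for TIMM9 on the scale of log2(CPM + 1), against a median of 0.0041 over all genes tested. The 2 groups did not overlap for any of the 63 genes, but neither did they for 561 of all 1218 genes (46.1%). Over all 1218 genes, 289 had an unadjusted p under 0.05 in limma and 616 had a change above 0. These are the background for such counts in the gene lists. edgeR's quasi-likelihood test on the recovered reads called 37 genes (3.04%), of which 36 were among the 63 (2.96%). The calls lean on the pooled spread of the 8 HepG2 libraries: 0 genes passed limma without mono-culture FFA replicate 1 (207 at an unadjusted p under 0.05), 9 without mono-culture FFA replicate 2, and 1 when the 4 libraries were fitted alone. Leaving out the co-culture FFA library of 49634 reads gave 100 calls, 53 of them among the 63. In each of these fits all 63 genes kept their direction. This was fixed in advance, since their 2 groups did not overlap, and is no support. Since the level limit was set on the mean of the 4 libraries, 6 of the 43 higher genes, APOE, BCLAF1, STMN1, AC090227.2, FCGRT and SRSF9, passed it through co-culture alone, with a mono-culture mean under 100 CPM, and counts that include them are no support for a direction. Of all 1218 genes, 106 had a mono-culture mean and 44 a co-culture mean under 100 CPM.

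**Figure D1:**
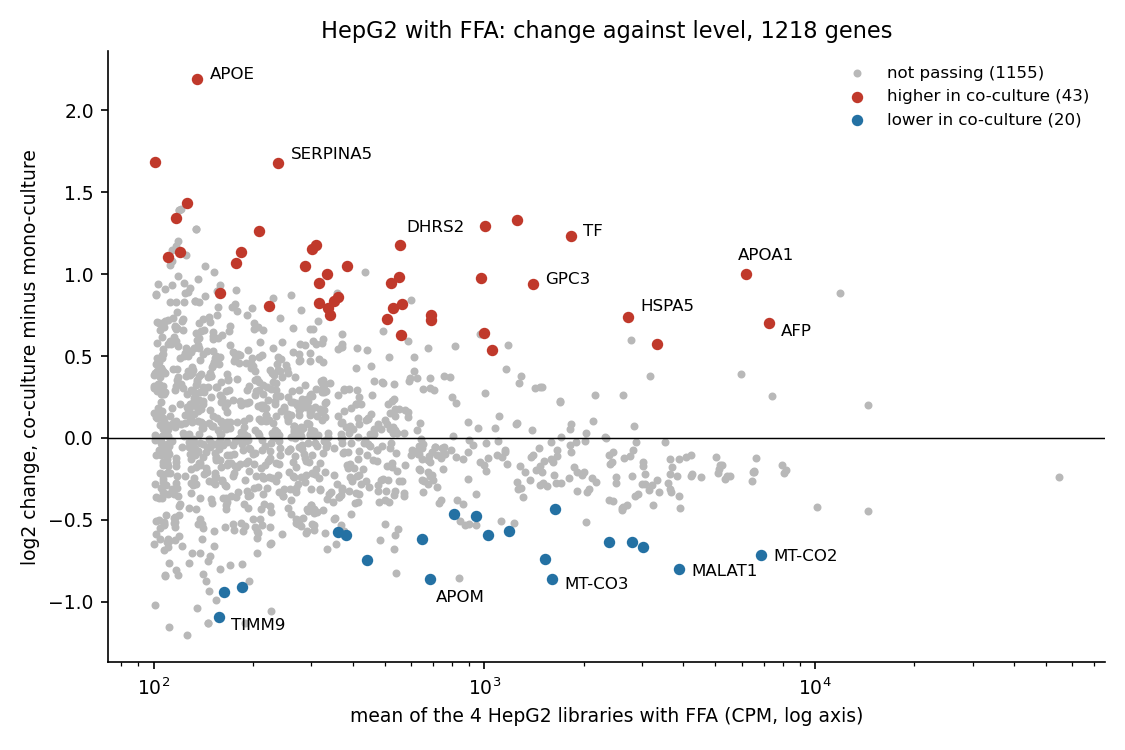
Each point is a gene, with its mean over the 4 FFA libraries of HepG2 on the horizontal axis (CPM, log scale) and its change from mono-culture to co-culture on the vertical axis (log2). Red points (43) were higher and blue points (20) lower at an adjusted p under 0.05 by limma, with APOE at the top and TIMM9 the lowest of those that passed.

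APOE, the apolipoprotein through which liver receptors take up remnant lipoproteins, had the largest change of the genes that passed. It passed the level limit through co-culture alone, as given above, so its rank is no support for a direction. It lies on chromosome 19, at 44905791 to 44909393 of GRCh38. Its level was 204 and 242 CPM in co-culture with FFA and 44.8 and 50.9 CPM in mono-culture with FFA. Both co-culture libraries stood above both mono-culture libraries, and above the 4 libraries without FFA, which reached at most 95.9 CPM. The change was 4.58-fold (log2 2.19 ± 0.38 SE, n = 2 in each group, limma adjusted p = 0.018). These levels rest on 30 and 12 reads in co-culture and 19 and 14 reads in mono-culture, so the counting error of APOE is large.

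Among 13 tested genes of the apolipoprotein and lipoprotein assembly list, 3 rose (APOE, APOA1 and CLU), 1 fell (APOM) and 9 did not pass, with a median change of 0.49 against 0.0041 over all genes. APOE passed the level limit through co-culture alone, so the count of rises and the median that include it are no support for a direction. APOA1, the main protein of high-density lipoprotein, was at 7111 and 9408 CPM in co-culture and 3514 and 4762 CPM in mono-culture. The groups did not overlap, and the change was 1.00 ± 0.17 (limma adjusted p = 0.018). Without FFA APOA1 was also higher in co-culture, at 6653 and 6560 CPM against 4849 and 3949 CPM. That change of 0.59 did not pass (limma adjusted p = 0.512). CLU, which encodes the extracellular chaperone clusterin, was at 945 and 1692 CPM against 669 and 618 CPM, so its 2 co-culture libraries differed widely while both stayed above mono-culture (0.97 ± 0.22, limma adjusted p = 0.0353). APOM, a carrier of sphingosine-1-phosphate on high-density lipoprotein, went the other way, with 551 and 423 CPM in co-culture and 933 and 830 CPM in mono-culture. Its fall by 0.86 on the log2 scale (SE 0.16, limma adjusted p = 0.018) left it below all 4 libraries without FFA, which lay between 838 and 1050 CPM. APOB, the structural protein of very-low-density lipoprotein, was at 374 and 403 CPM against 290 and 193 CPM and did not pass (adjusted p = 0.128).

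Plasma carriers and other secreted liver proteins showed 3 rises among 16 tested genes (TF, TTR and AFP), no falls and a median change of 0.34. TF encodes transferrin, the iron carrier of plasma, and was at 1808 and 3405 CPM in co-culture against 1048 and 1059 CPM in mono-culture. The co-culture libraries were both higher but lay far apart, and the change was 2.35-fold (log2 1.24 ± 0.23, limma adjusted p = 0.0197). TTR, the carrier of thyroid hormone and retinol-binding protein, was at 775 and 947 CPM against 542 and 498 CPM, with no overlap (0.72 ± 0.14, limma adjusted p = 0.0207). Without FFA it was at 889 and 1047 CPM in co-culture and 822 and 765 CPM in mono-culture. The mono-culture FFA libraries thus stood lowest, and the co-culture FFA libraries did not exceed the co-culture range without FFA. AFP, the fetal counterpart of albumin that HepG2 keeps making, was at 7974 and 9913 CPM against 4692 and 6396 CPM (0.70 ± 0.16, limma adjusted p = 0.0361). ALB, which encodes albumin, was at 9810 and 21658 CPM against 6555 and 9536 CPM. The 2 ALB values in co-culture differed more than the group means did, and ALB did not pass (0.88 ± 0.31, limma adjusted p = 0.134). The rise of this list was not particular to HepG2, since its 16 genes had a median of 0.50 in Caco-2 with FFA. AFP rose there by 1.07 (limma adjusted p = 0.0086), while TTR (0.68) and TF (0.04) did not pass.

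SERPINA5, the protein C inhibitor, was at 252 and 484 CPM in co-culture and 115 and 102 CPM in mono-culture, and rose by 1.68 on the log2 scale (SE 0.30, limma adjusted p = 0.018). It overlaps AL049839.2 on the same strand, whose change of -0.50 had the opposite sign. SERPINF1, which encodes the secreted factor PEDF, was at 884 and 846 CPM against 506 and 520 CPM, a tight separation that gave an adjusted p of 0.018 by limma. ASGR1, a subunit of the hepatocyte receptor for desialylated glycoproteins, was at 680 and 665 CPM against 349 and 429 CPM, again with no overlap (0.80, limma adjusted p = 0.018). GPC3, a cell-surface heparan sulfate proteoglycan expressed in hepatocellular carcinoma, was at 1557 and 2156 CPM against 926 and 982 CPM (0.94 ± 0.15, limma adjusted p = 0.018). DHRS2, a short-chain dehydrogenase, had the smallest p of all genes, with 1332 and 1531 CPM in co-culture and 542 and 626 CPM in mono-culture (1.29 ± 0.17, limma adjusted p = 0.0171). All 5 genes were higher in both co-culture libraries.

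INHCAP, an annotated transcribed pseudogene of the transferrin family, was at 1176 and 2498 CPM in co-culture and 620 and 749 CPM in mono-culture (1.33 ± 0.29, limma adjusted p = 0.0316). It resembles TF, so the division of reads between the pair is uncertain, and TF also overlaps SRPRB on the same strand (change -0.85, adjusted p = 0.149). The 6 tested fibrinogen and coagulation genes had a median of 0.33 and no gene passed limma or edgeR, with 2 genes at an unadjusted p under 0.05, FGB and FGG. FGB was at 1346 and 1451 CPM against 806 and 1106 CPM (adjusted p = 0.077), and FGG at 6384 and 7213 CPM against 5036 and 5319 CPM (adjusted p = 0.104). All 5 tested complement and acute phase genes had a change below 0, with a median of -0.55, but again no gene passed limma or edgeR and 1 had an unadjusted p under 0.05. This was C4BPB, the beta chain of the C4b-binding protein, at 75 and 81 CPM in co-culture and 137 and 142 CPM in mono-culture (adjusted p = 0.085). In the same libraries the liver marker sum was higher in co-culture, as given above, and its part in these results was not tested.

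**Figure D2:**
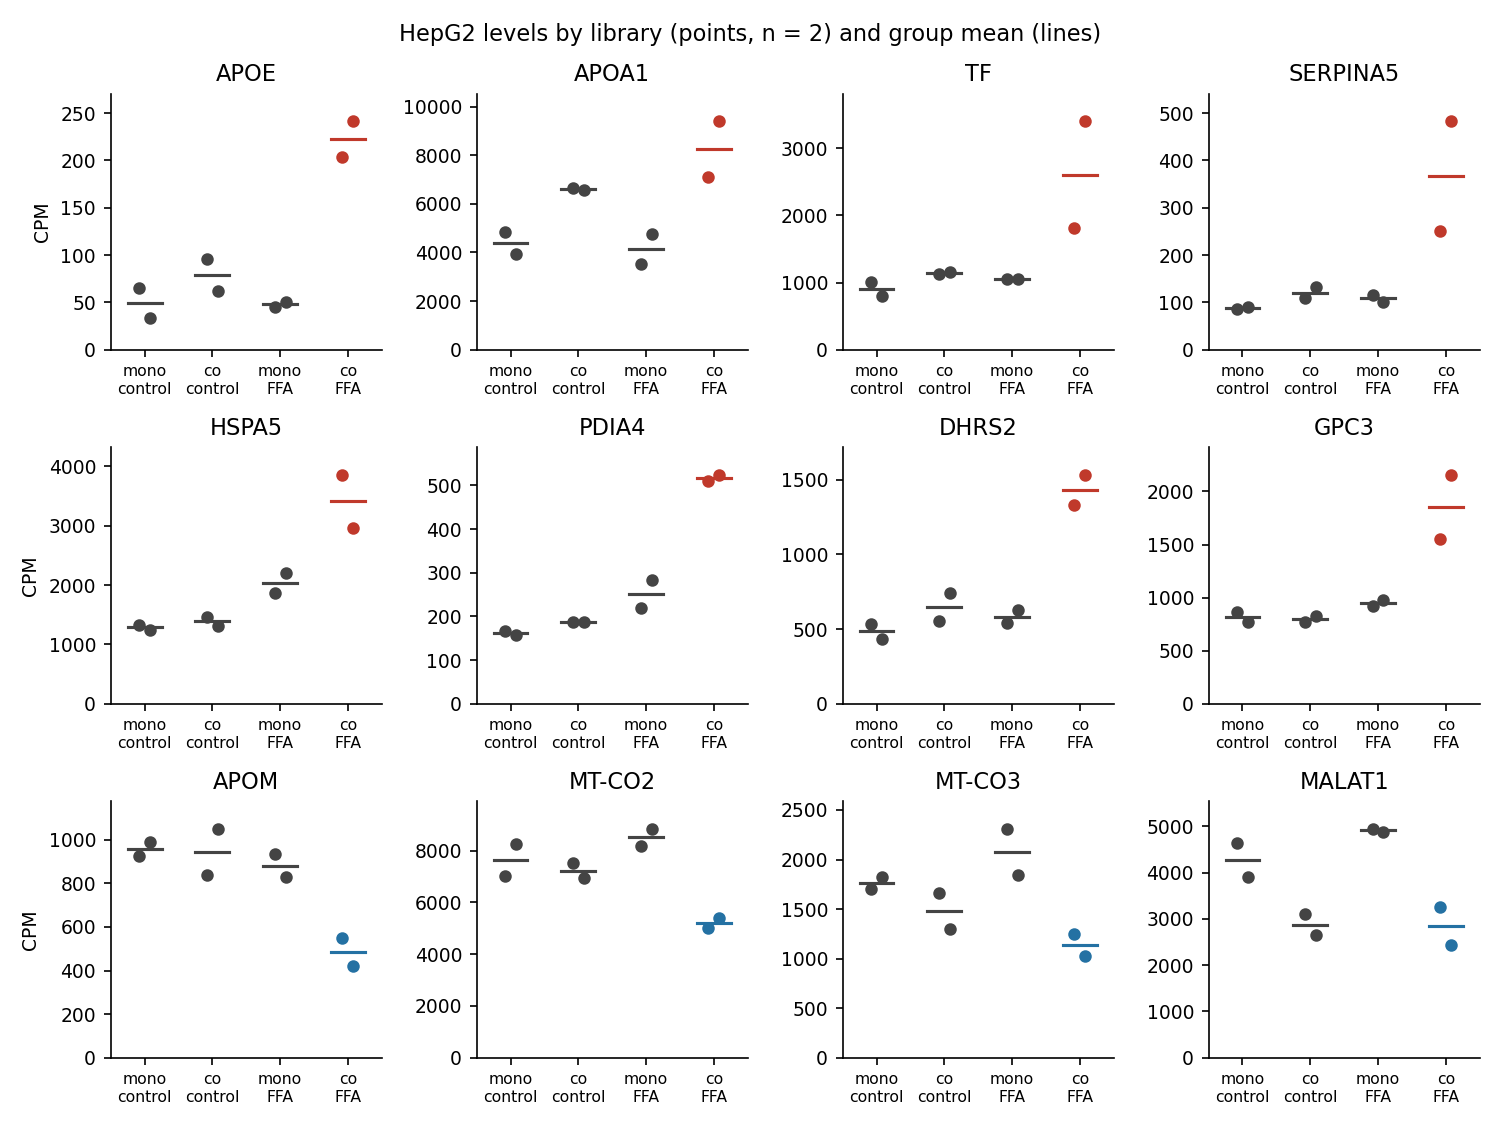
Each panel gives the CPM of 1 gene (vertical axis from 0) in the 8 HepG2 libraries, by culture and treatment, with points for libraries (n = 2) and a line for the group mean. The co-culture FFA libraries are in red for genes that rose and in blue for genes that fell, and MALAT1 is also low in the co-culture control libraries, at 3101 and 2654 CPM.

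Of 17 tested ER chaperones and disulfide isomerases, 3 rose (PDIA4, HSPA5 and CALR), none fell and 13 had a change above 0, with a median of 0.38. edgeR called 3 of these 17 genes as well, and 9 had an unadjusted p under 0.05 in limma, all 9 higher. The background over all 1218 genes was 289 with an unadjusted p under 0.05, in either direction, and 616 with a change above 0. The promoters of several of these genes hold the ER stress response element (ERSE), a motif bound by ATF6 and NF-Y, which was searched on both strands as CCAAT, any 9 bases and CCACG. In the 250 bases before the RefSeq start (build GRCh38.p14), it occurred in 5 of the 16 list members with a promoter sequence, CALR, CANX, CRELD2, HSP90B1 and HSPA5, and in 22 of all 27305 promoters (0.0806%). Among the tested genes with a promoter sequence it occurred in 8 of 853 (0.938%). Of the 24 such genes called higher, 2 held it, CALR and HSPA5. The PDIA4 promoter held no match. The 3 shown here are those of HSPA5 (chr9:125241344-125241593, minus strand), CALR (chr19:12938359-12938608, plus strand) and HSP90B1 (chr12:103930160-103930409, plus strand), chosen because they have the smallest p in this comparison among the 5 members with the motif. Capitals mark the fixed letters of the motif, which read CGTGG and ATTGG where the match is on the other strand.
HSPA5: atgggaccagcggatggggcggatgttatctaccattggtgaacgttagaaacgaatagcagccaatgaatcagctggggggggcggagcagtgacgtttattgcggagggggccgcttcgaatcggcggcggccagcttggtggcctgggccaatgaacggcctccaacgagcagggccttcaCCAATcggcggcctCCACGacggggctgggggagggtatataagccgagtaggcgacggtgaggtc
CALR: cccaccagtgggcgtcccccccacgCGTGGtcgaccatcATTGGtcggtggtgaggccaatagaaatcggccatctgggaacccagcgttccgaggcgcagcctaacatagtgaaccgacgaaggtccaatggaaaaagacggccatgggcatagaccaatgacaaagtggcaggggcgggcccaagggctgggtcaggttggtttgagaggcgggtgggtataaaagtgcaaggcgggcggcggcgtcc
HSP90B1: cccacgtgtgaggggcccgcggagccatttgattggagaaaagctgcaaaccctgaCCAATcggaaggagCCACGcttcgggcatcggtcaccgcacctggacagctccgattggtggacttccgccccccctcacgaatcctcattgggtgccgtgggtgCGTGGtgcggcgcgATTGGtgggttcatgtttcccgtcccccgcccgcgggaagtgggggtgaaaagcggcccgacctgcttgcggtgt
A match describes these letters only, and no binding was measured.

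HSPA5, the central chaperone of the ER lumen, was at 3854 and 2962 CPM in co-culture and 1868 and 2205 CPM in mono-culture. Without FFA the 4 HepG2 libraries lay between 1240 and 1457 CPM, so the mono-culture FFA libraries already stood above them and the co-culture FFA libraries stood highest. Its change was 1.66-fold (log2 0.74 ± 0.14, limma adjusted p = 0.0207). PDIA4, a disulfide isomerase, was at 510 and 524 CPM against 219 and 284 CPM, which is 1.05 ± 0.18 on the log2 scale (limma adjusted p = 0.018). CALR, which encodes the lectin chaperone calreticulin, was at 1129 and 1310 CPM against 773 and 786 CPM (0.64 ± 0.13, limma adjusted p = 0.0207). HSP90B1, which encodes the chaperone GRP94, was at 3821 and 3344 CPM against 2989 and 2532 CPM. Its groups did not overlap, and it missed the threshold at an adjusted p of 0.096. CANX, another holder of the motif, was at 354 and 161 CPM against 273 and 233 CPM, with overlapping groups and a change of -0.08.

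Of 8 tested genes of ER-associated degradation, none passed limma or edgeR, DESeq2 called 1 and 1 had an unadjusted p under 0.05. This was HERPUD1, a membrane component of the degradation complex and a target of ER stress, at 551 and 1007 CPM in co-culture and 360 and 477 CPM in mono-culture (0.84 ± 0.25, limma adjusted p = 0.085). Of 41 tested genes of ER translocation and ER-Golgi transport, 1 fell and none rose, with a median of 0.05. The one that fell was SSR4, a subunit of the translocon-associated complex, at 537 and 484 CPM against 841 and 728 CPM (change -0.62, limma adjusted p = 0.0332), and edgeR did not call it (adjusted p = 0.0647). RPN1, a subunit of the oligosaccharyltransferase, was at 286 and 302 CPM against 139 and 189 CPM and did not pass (adjusted p = 0.085). Of the 12 tested ATF4 and CHOP targets, the genes of the integrated stress response, 1 rose and none fell, with a median of 0.23. PSAT1, an enzyme of serine synthesis, was at 408 and 524 CPM against 233 and 276 CPM (0.86 ± 0.19, limma adjusted p = 0.0332). DDIT3, which encodes CHOP itself, was at 75 and 201 CPM against 151 and 175 CPM, so its groups overlapped (adjusted p = 0.543).

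Genes of lipid handling inside the cell were mostly near or below the level limit. CPT1A, SCD, HMGCS1 and MT2A, which were to be named, did not reach a mean of 100 CPM. PLIN2, a coat protein of lipid droplets, was at 394 and 322 CPM in co-culture and 203 and 397 CPM in mono-culture, with overlapping groups (0.33 ± 0.28, limma adjusted p = 0.464). No gene of the 4 tested in lipid droplets, the 3 in fatty acid synthesis or the 7 in cholesterol synthesis passed limma or edgeR, and 1 gene among them had an unadjusted p under 0.05. This was HACD3, an enzyme of fatty acid elongation, at 156 and 121 CPM against 82.4 and 83.7 CPM (0.72, limma adjusted p = 0.155). Of 9 tested genes of fatty acid oxidation and ketogenesis, 1 rose, and the median was 0.26. ACAA2, the thiolase of the last step of mitochondrial beta-oxidation, was at 204 and 302 CPM against 96.6 and 131 CPM (1.14 ± 0.27, limma adjusted p = 0.0378). The annotated gene AC090227.2 overlaps ACAA2 on the same strand and rose with it, at 150 and 222 CPM against 61.2 and 72.8 CPM (1.43, limma adjusted p = 0.0353), and how reads were divided between them is uncertain. edgeR called neither of them (adjusted p = 0.0716 for ACAA2 and 0.0783 for AC090227.2), and AC090227.2 passed the level limit through co-culture alone. ETFA, a subunit of the electron transfer flavoprotein, was at 245 and 282 CPM against 158 and 175 CPM and did not pass (adjusted p = 0.085).

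The mitochondrial genome encodes subunits of the respiratory chain and ATP synthase together with its own ribosomal RNAs. All 14 tested genes of this genome had a change below 0, with a median of -0.64, and 7 of them fell. edgeR called 6 and DESeq2 7 of the 14, and 13 of the 14 were lower in co-culture with no overlap (background 22% of all genes). MT-CO2, subunit 2 of cytochrome c oxidase, was at 5017 and 5379 CPM in co-culture and 8197 and 8837 CPM in mono-culture. Both co-culture libraries were also below the 4 libraries without FFA, which lay between 6949 and 8258 CPM, and the fall was 0.71 on the log2 scale (SE 0.11, limma adjusted p = 0.018). MT-CO3 was at 1251 and 1027 CPM against 2308 and 1841 CPM (change -0.86 ± 0.16), and MT-ATP6, of the ATP synthase, at 1210 and 1088 CPM against 1877 and 1950 CPM (change -0.74 ± 0.13), both with an adjusted p of 0.018 by limma. These neighbouring genes overlap on the same strand. MT-ND1, MT-ND4, MT-CO1 and MT-CYB completed the 7, with changes between -0.67 and -0.57, and of the 7 only MT-CYB was not called by edgeR (adjusted p = 0.0783). Without FFA the 14 genes had a median change of -0.24, with 3 above 0. Both co-culture FFA libraries were below all libraries without FFA for MT-CO3 and MT-ATP6 too. For MT-ND4 (2094 and 2297 CPM) and MT-CO1 (1876 and 1854 CPM) they lay inside the range without FFA. That range was 1740 to 2351 CPM for MT-ND4 and 1520 to 2463 CPM for MT-CO1. MT-ND1 and MT-CYB each had 1 co-culture FFA library inside their range. The mitochondrial ribosomal RNAs MT-RNR1 and MT-RNR2 changed by -0.17 and -0.24 and did not pass (adjusted p = 0.411 and 0.432). The mitochondrial share of all reads was 7.49% and 7.77% in co-culture and 10.3% and 9.10% in mono-culture. These values are shares of each library's total, so the amount of mitochondrial RNA per cell was not measured. Fewer mitochondrial genomes per cell and less RNA per genome cannot be told apart in these bulk samples, and neither was tested.

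Of 59 tested nuclear genes of the respiratory chain and ATP synthase, limma called 1 lower and none higher, while edgeR called 1 higher and none lower. The gene edgeR called was UQCRC1, a core subunit of complex III, at 354 and 161 CPM in co-culture and 137 and 156 CPM in mono-culture (edgeR adjusted p = 0.0416, limma adjusted p = 0.199). The median was -0.15, with 25 lower and 8 higher without overlap (background 22% and 24.1%). COX6B1, a subunit of cytochrome c oxidase, was at 299 and 282 CPM in co-culture and 403 and 466 CPM in mono-culture (change -0.57, limma adjusted p = 0.0409), and edgeR gave it an adjusted p of 0.127. Outside the list, 2 genes that serve mitochondria had the lowest changes of all that passed. TIMM9, a chaperone of mitochondrial protein import, was at 122 and 80.6 CPM against 205 and 222 CPM (change -1.09 ± 0.26, limma adjusted p = 0.0378). NDUFAF2, an assembly factor of complex I, was at 102 and 121 CPM against 238 and 193 CPM (change -0.94 ± 0.20, limma adjusted p = 0.0300). The TIMM9 level in the shallower co-culture library rests on 4 reads, and edgeR called neither gene (adjusted p = 0.118 for TIMM9 and 0.0647 for NDUFAF2). GTF2A1, a subunit of the transcription factor TFIIA, followed at 116 and 141 CPM against 238 and 244 CPM (change -0.91, limma adjusted p = 0.0353), and edgeR did not call it either (adjusted p = 0.102).

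**Figure D3:**
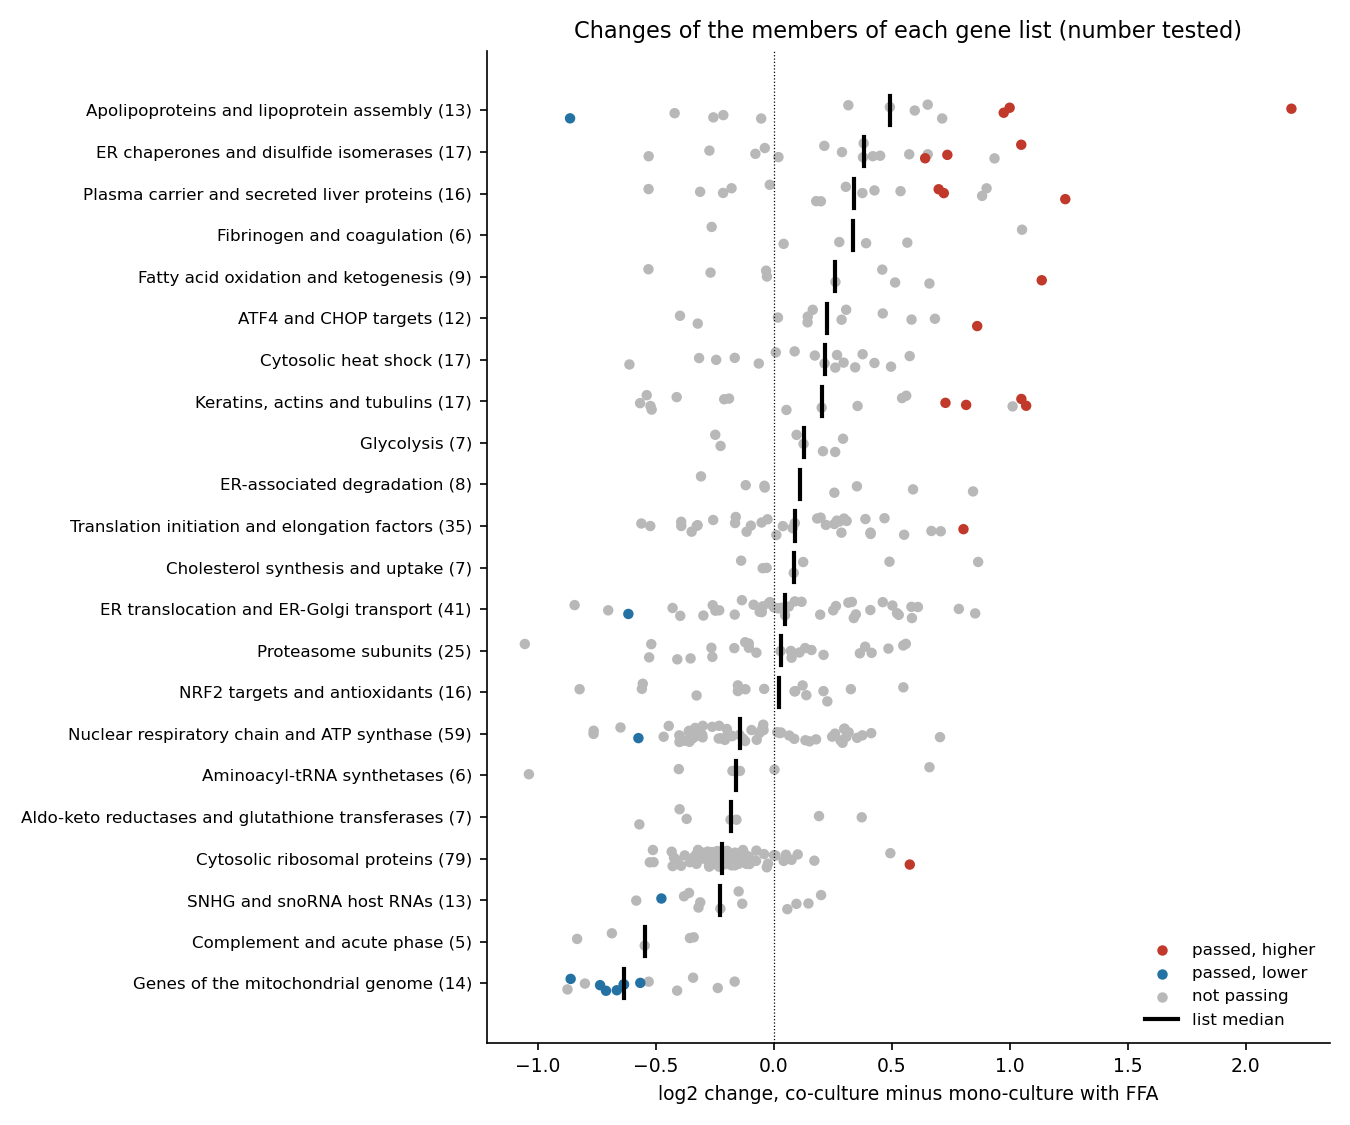
Each point is a tested gene, placed by its log2 change from mono-culture to co-culture with FFA (horizontal axis) in its list (vertical axis, number tested in brackets), and black lines give list medians. Apolipoproteins have the highest median (0.49, with APOE included, which passed the level limit through co-culture alone) and genes of the mitochondrial genome the lowest (-0.64) among the lists with at least 5 tested genes.

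Ribosomal protein genes made a narrow group just below 0. Of 79 tested, 1 rose and none fell in limma, 11 had a change above 0 and the median was -0.22, with 39 lower and 2 higher without overlap (background 22% and 24.1%). The single rise was RPL13, at 3753 and 4231 CPM in co-culture and 2473 and 2889 CPM in mono-culture (0.58 ± 0.11, limma adjusted p = 0.0207). The processed pseudogenes RPL10P16 and RPL21P28 were called lower by limma (changes -0.46 and -0.59) but not by edgeR (adjusted p = 0.0948 and 0.119), and their reads cannot be separated with certainty from those of the parent genes. In contrast, 4 copies of a small ribosomal RNA gene, named 5_8S_rRNA or RNA5-8S in the files, rose by 0.79 to 1.00. The copy named 5_8S_rRNA was at 469 and 423 CPM against 252 and 196 CPM (limma adjusted p = 0.018). The 4 copies have 1 and the same annotated sequence of 153 bases, so they count as a single measurement, and edgeR called 1 of the 4. They were higher in co-culture without FFA too, by at least 1.13, and did not pass there. In Caco-2 with FFA they were higher in co-culture by 1.61 to 1.87 and passed limma (adjusted p from 0.0014 to 0.0122). FP671120.6, FP236383.4 and FP236383.5, lncRNAs annotated among ribosomal RNA genes on chromosome 21, rose by 1.18, 0.95 and 0.98. These lncRNAs share an annotated length of 923 bases and had close levels, so the division of reads among them is uncertain. They and the 4 copies are among the 43 genes called higher, so that count holds fewer separate measurements.

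Of 17 tested keratins, actins, tubulins and associated genes, 4 rose and none fell, with a median of 0.20. KRT18 and KRT8 encode the keratin pair of simple epithelia and of hepatocytes. KRT18 was at 748 and 685 CPM in co-culture and 372 and 444 CPM in mono-culture (0.81 ± 0.15, limma adjusted p = 0.018). KRT8 was at 619 and 645 CPM against 353 and 411 CPM (0.73 ± 0.14, limma adjusted p = 0.0207). The epithelial markers KRT19 and VIL1 moved the same way, as given above, and their part in this was not tested. The annotated bounds of this pair overlap on opposite strands, and whether counting used strand is not given in the sources used here. CFL1, which severs actin filaments, was at 360 and 403 CPM against 134 and 251 CPM, and TPM3, a tropomyosin, at 184 and 302 CPM against 111 and 113 CPM. Both passed limma (adjusted p = 0.0466 and 0.0401) but not edgeR (adjusted p = 0.0595 and 0.118). STMN1, which destabilizes microtubules, was at 136 and 201 CPM against 63.6 and 65.5 CPM (1.35 ± 0.28, limma adjusted p = 0.0265), and edgeR gave it an adjusted p of 0.101. STMN1 passed the level limit through co-culture alone.

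Genes of antigen handling were also among the rises. CD74, the invariant chain of MHC class II, was at 435 and 423 CPM in co-culture and 153 and 233 CPM in mono-culture (1.18 ± 0.23, limma adjusted p = 0.0207). HLA-C, an MHC class I heavy chain, was at 258 and 322 CPM against 87.2 and 164 CPM (1.26 ± 0.29, limma adjusted p = 0.0378), and reads of this gene can be split among the similar class I genes. FCGRT, which encodes the neonatal Fc receptor that recycles albumin and IgG, was at 150 and 181 CPM against 80.1 and 69.1 CPM (1.14, limma adjusted p = 0.0378, edgeR adjusted p = 0.130). No list held these genes, and FCGRT was chosen after its values were seen. BCLAF1, a nuclear factor linked to splicing and transcription, was at 163 and 141 CPM against 66.0 and 32.7 CPM (1.68 ± 0.40, limma adjusted p = 0.0378), on 7 reads in the shallower library, and edgeR did not call it (adjusted p = 0.0783). Like FCGRT, BCLAF1 passed the level limit through co-culture alone. MALAT1, an abundant nuclear lncRNA, fell from 4942 and 4879 CPM in mono-culture to 3250 and 2438 CPM in co-culture (change -0.80, limma adjusted p = 0.018). NEAT1, the lncRNA of paraspeckles, was at 122 and 80.6 CPM against 221 and 164 CPM and did not pass (adjusted p = 0.104). TM4SF5, given above with the gut markers, fell in limma (change -0.74, adjusted p = 0.0353) but not in edgeR (adjusted p = 0.0672), and since all 4 libraries stood above its Caco-2 mean it says nothing of gut cells.

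Whether the co-culture difference was another one with FFA than without it was tested by the difference of both contrasts. Without FFA, 0 of the same 1218 genes passed limma (40 at an unadjusted p under 0.05), and the smallest adjusted p was 0.0522. Both contrasts used the spread pooled over all HepG2 libraries, with a median SE of 0.22. The median gene differed between replicates by 0.12 and 0.14 without FFA, against 0.33 and 0.22 with FFA. The pooled spread is thus wide for the groups without FFA and narrow for those with it. The counts of 63 and 0 cannot be set against each other. The difference between the contrasts gave 0 genes by limma (110 at an unadjusted p under 0.05) and 0 by edgeR (91 unadjusted), with a smallest adjusted p of 0.478 in limma, so for no gene was the co-culture difference with FFA shown to be another one than without it. Of the 63 called genes, 53 had the same sign without FFA and 59 had the larger change with FFA. Over all genes 59.2% had the same sign. The 43 higher genes had a median of 0.97 with FFA and 0.30 without, and the 20 lower genes had -0.65 and -0.17. The genes were chosen by their change with FFA, so the larger size there is a description. GPC3 had the smallest p of the difference, with a change of 0.94 with FFA and -0.03 without (difference 0.97 ± 0.22, unadjusted p = 0.0011, adjusted p = 0.478). MT-CO2 followed, with -0.71 and -0.08 (difference -0.64 ± 0.16), and then A2M, the plasma protease inhibitor alpha-2-macroglobulin, with 0.55 and -0.30. For MALAT1 the change was -0.80 with FFA and -0.57 without.

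**Figure D4:**
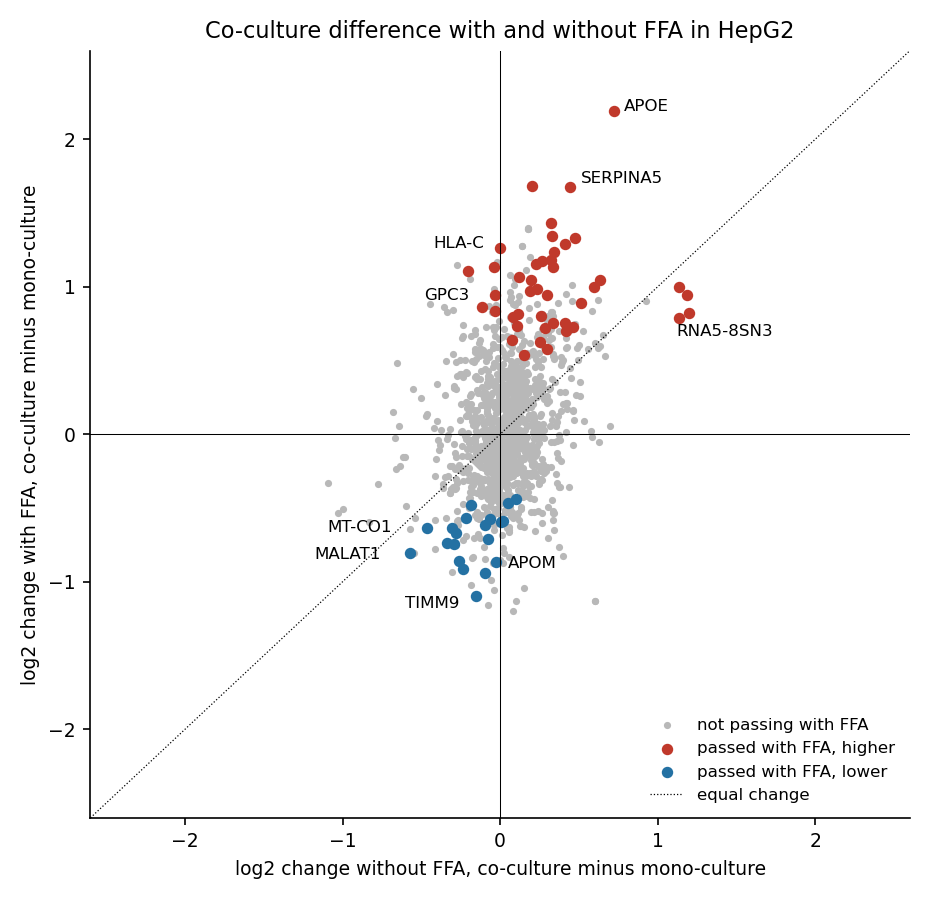
Each point is a gene, with its log2 change from mono-culture to co-culture without FFA (horizontal) and with FFA (vertical), and the dotted line marks equal change. Most genes that passed with FFA lie farther from 0 on the vertical than on the horizontal axis, while the RNA5-8S copies lie to the right, at 1.13 or more without FFA.

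In Caco-2 cells with FFA, 14 of the 1218 genes passed between co-culture and mono-culture (1.15%). The difference between the contrasts of both lines passed limma for 21 genes (1.72%), 13 with a higher value in HepG2 and 8 with a lower one, and edgeR called 37. APOE led, with 2.19 in HepG2 and -0.62 in Caco-2, where it was at 81.1 and 73.9 CPM in co-culture and 114 and 125 CPM in mono-culture (difference 2.81 ± 0.40, limma adjusted p = 0.0076). HSPA5 was 0.74 in HepG2 and -0.61 in Caco-2, where co-culture was at 176 and 177 CPM and mono-culture at 252 and 289 CPM (difference 1.34 ± 0.23, limma adjusted p = 0.0089). Genes of the mitochondrial genome went the opposite way, with MT-CO3 at -0.86 in HepG2 and 0.65 in Caco-2 (difference -1.51 ± 0.22, limma adjusted p = 0.0076). MT-ATP6 came next after MT-CO3 (difference -1.30 ± 0.20, limma adjusted p = 0.0083), with -0.74 in HepG2 and 0.56 in Caco-2. Over the 14 mitochondrial genes the medians were -0.64 in HepG2 and 0.43 in Caco-2. Plasma carriers had medians of 0.34 in HepG2 and 0.50 in Caco-2, and fibrinogen and coagulation genes 0.33 and 0.50. Apolipoproteins, with APOE included, had 0.49 and 0.38, while complement and acute phase genes had -0.55 and 0.54. APOM was -0.86 in HepG2 and 0.97 in Caco-2 (difference -1.83, limma adjusted p = 0.0083). The number of calls fell from 21 to 2 without HepG2 mono-culture FFA replicate 1 and rose to 189 without HepG2 co-culture FFA replicate 1.

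Transcript length moved with the change in this comparison. Over 1215 genes with a canonical transcript in GENCODE 44, Spearman's rho between length and the log2 change was 0.295 with FFA in HepG2, -0.042 without FFA and -0.175 in Caco-2 with FFA. These genes share their libraries, so this is a description. The genes were split by length into 3 groups of 405. The median change was -0.15 in the shortest group (up to 1017 bases), 0.06 in the middle group and 0.17 in the longest group (from 2204 bases). From the shortest to the longest group, genes called higher numbered 11, 16 and 16, and genes called lower 13, 4 and 3. The shortest group held 45 of the 79 ribosomal protein genes, 8 of the 14 mitochondrial genes, 7 of the 13 apolipoprotein genes, 4 of the 17 ER chaperones and 3 of the 16 plasma carriers. The part of length in these results was not tested. With the ribosomal protein genes left out, rho was 0.294 over 1032 protein-coding genes.

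**Figure D5:**
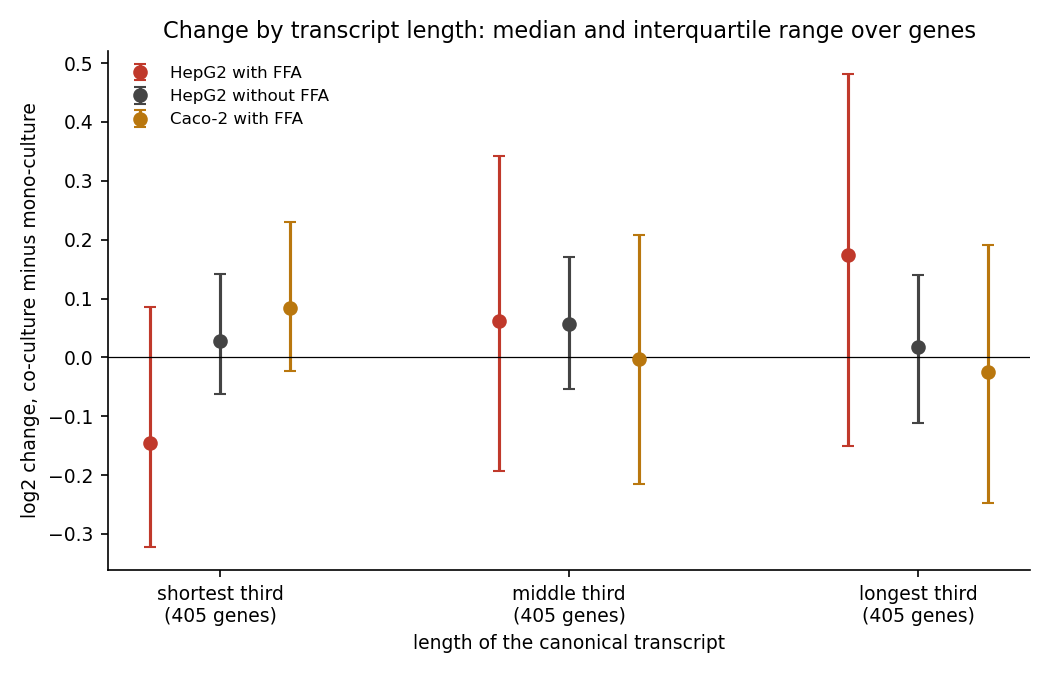
Points give the median and bars the interquartile range over genes of the log2 change from mono-culture to co-culture (vertical axis), for 3 groups of 405 genes each by canonical transcript length (horizontal axis). The HepG2 medians with FFA go from -0.15 to 0.17, while those without FFA stay between 0.02 and 0.06.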

How the data were processed

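The deposited values are named TPM, but in each library they are whole multiples of 1 step, so they are CPM, reads scaled to a common library total, which the authors made from reads per gene without division by length. The submitters' processing notes name minimap2 2.22 and GRCh38. The study's methods describe removal of rRNA, tRNA and mitochondrial reads with Bowtie, alignment with STAR and counting with RSEM for mRNA-seq, without saying whether this held for the Nanopore reads. Mitochondrial genes are present in these files, and strand use in counting is not given in the sources used here. Dividing by the step gave whole reads within 0.1 read for 99.5% to 100% of nonzero values per library.

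Groups came from the labels. Genes averaging 100 CPM or more over the 4 FFA libraries of HepG2 were tested with limma 3.58.1 (R 4.3.3) on log2(CPM + 1), with a trended prior, over all 8 HepG2 libraries, and p-values were adjusted by Benjamini-Hochberg over the 1218 genes. The pseudocount makes changes of low genes too small. The same fit gave the difference with minus without FFA, and a fit of the 8 FFA libraries of both lines gave the difference between the lines. edgeR 4.0.16 and DESeq2 1.42.0 were run on the recovered reads as alternatives, and the steps were tested on simulated data. Intervals and floors of counts would cover counting error only, and 3 reads stand for 7.07 to 60.4 CPM in the 4 libraries.

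The members, the 35 gene lists and the tests were chosen with earlier results of these data known. The named genes were the 10 highest and 10 lowest changes that passed, the 2 tested members of each list with the smallest p, 9 preset genes and the 3 genes with the smallest p of each other contrast. Members that complete a list's calls or hold the motif, and SERPINF1, ASGR1, FCGRT, SRSF9, UQCRC1, APOB, the rRNA-related lncRNAs and the gut markers given with values, were added after their values were seen. Replicate numbers were checked for pairing: the correlation of same-numbered deviations was 0.11 between the 2 FFA groups of HepG2 and -0.092 to 0.16 over all pairs of groups, so the numbers were not treated as pairs. Positions came from GENCODE 44 (60295 of 60623 IDs matched), and promoters from RefSeq (853 of the 1218 genes matched).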

Additional observations from a re-analysis of the deposited data

Results flagged for a closer look

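The co-culture difference with FFA was tested between HepG2 and Caco-2, and 12 of the named genes passed limma at an adjusted p under 0.05, each value being the HepG2 change minus the Caco-2 change on the log2 scale. Higher in HepG2 than in Caco-2 were APOE (2.81), the sterol synthesis gene MSMO1 (2.29), the ER genes HERPUD1 (1.90) and HSPA5 (1.34), the keratins KRT18 (1.16) and KRT8 (0.96), and RPL13 (0.76). Lower in HepG2 were APOM (-1.83), MT-CO2 (-1.75), MT-ND1 (-1.62), MT-CO3 (-1.51) and MT-ATP6 (-1.30). For MSMO1 and HERPUD1 the HepG2 change alone did not pass (0.49 and 0.84), and most of the difference lay in Caco-2, at -1.80 and -1.06. With 2 libraries in each group, no library could be tested for standing apart from its own group.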

How the results depend on the processing

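The number of genes called between co-culture and mono-culture with FFA, 63, was within 1.5 times of itself with pseudocounts of 0.1 and 10, a mean of at least 300, quantile or median-ratio scaling, a total without mitochondrial and rRNA genes, the replicate block (79) and DESeq2. It was 31 with a mean of at least 50, 33 with voom, 37 with edgeR, 1 with the 4 libraries alone, and 6 with sample quality weights, an alternative added after the depths were seen. It was 0 with a constant prior (273 at an unadjusted p under 0.05) and 0 with a mean of at least 1 (2118 unadjusted). Leaving out 1 library gave 0 to 442, with 442 without co-culture FFA replicate 1 and 0 without mono-culture FFA replicate 1, and the lone library was then assumed to vary like the other groups. It was 118 at an adjusted p under 0.1, and 282 at an unadjusted p under 0.05 with at least 1.2-fold. Each called gene kept its sign wherever it was tested, but most of these settings could not have reversed it. Leaving out 1 library cannot do so for groups that do not overlap. The mean limits, the constant prior, the replicate block and the 4 libraries alone leave the change itself as it is. The kept signs are therefore no support.

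The difference with minus without FFA stayed at 0 except for 110 genes at an unadjusted p under 0.05 with at least 1.2-fold and 0 to 189 when 1 library was left out, with 189 without co-culture FFA replicate 1. The difference between HepG2 and Caco-2, 21 genes, became 8 with a mean of at least 50, 0 with a mean of at least 1 (1749 unadjusted), 7 with quantile and 10 with median-ratio scaling, 1 with a constant prior, 37 with edgeR, 37 at an adjusted p under 0.1, 217 at the unadjusted limit and 2 to 189 when 1 library was left out. The causes were not tested. The gut marker sum differed between co-culture and mono-culture by -42.1 CPM with all markers and by 182 CPM without TM4SF5, an alternative added after the values were seen.

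Some genes that had not passed reversed sign when 1 library was left out, with ranges from -0.15 (without mono-culture FFA replicate 1) to 0.81 for PLIN2, -0.019 (the same library) to 0.30 for CD63, -0.28 to 0.23 for FTH1 (0.034 without co-culture FFA replicate 2, 0.15 with quantile scaling), -1.23 to 0.090 for AKR1C2, -0.031 to 0.77 for MYC, -0.76 to 0.15 for CYCS and -1.11 to 0.31 for DDIT3. With the replicate number as a block, 79 genes were called, including all 63. Depth limits the co-culture group most, since 471 genes rested on fewer than 10 reads in 1 of its libraries.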

Other observations

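The lists of proteasome subunits, cytosolic heat shock and antioxidant genes showed no calls. Of 25 tested proteasome subunits, limma and edgeR called none and 6 had an unadjusted p under 0.05 (background 289 of all 1218 genes), with a median of 0.03. PSMA3, an alpha subunit, was at 204 and 101 CPM in co-culture and 259 and 346 CPM in mono-culture (change -1.06), and PSMB1, a beta subunit, at 673 and 665 CPM against 554 and 488 CPM (0.36). Of 17 cytosolic heat shock genes none was called by limma or edgeR (2 unadjusted), and CCT7, a subunit of the chaperonin that folds actin and tubulin, was at 320 and 343 CPM against 214 and 229 CPM (0.58). None of 16 NRF2 targets and antioxidant genes was called by either tool (2 unadjusted), and SOD1, the cytosolic superoxide dismutase, was at 537 and 363 CPM against 610 and 691 CPM. The 7 glycolysis genes (1 unadjusted), 7 aldo-keto reductases and glutathione transferases (0 unadjusted), 6 aminoacyl-tRNA synthetases (0 unadjusted) and 2 iron storage genes (1 unadjusted) likewise had no call by limma or edgeR.

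Of 35 translation factors, 1 rose and none fell. EIF3F, a subunit of initiation factor 3, was at 265 and 302 CPM in co-culture and 167 and 156 CPM in mono-culture (0.80, limma adjusted p = 0.0379). Of 13 snoRNA host RNAs, 1 fell and none rose, with a median of -0.23. SNHG29 was at 775 and 806 CPM against 1152 and 1051 CPM (change -0.48, limma adjusted p = 0.0378), and edgeR called neither EIF3F nor SNHG29 (adjusted p = 0.123 and 0.0705). The mitosis list had 2 tested genes, of which STMN1 is described above and CKS1B, a subunit of cell cycle kinases, was at 116 and 121 CPM against 127 and 164 CPM. The lists of DNA replication, junctions, apoptosis and immediate-early genes had 1 or 2 tested genes each and no call by limma or edgeR (0 unadjusted), and no metallothionein reached the level limit.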
